A study of Danio rerio with 8 samples.

Results

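Parvalbumins are small proteins of the cell fluid that bind calcium through EF-hand loops. In fast skeletal muscle they take up calcium after a contraction and so speed relaxation, and they are among the most abundant soluble proteins of fish white muscle. In mammals they also mark a class of inhibitory neurons and are scarce in heart muscle. Zebrafish carry a family of parvalbumin genes, of which pvalb1, pvalb2, pvalb3 and pvalb4 are described here. They were found by their symbols in the platform annotation of an Affymetrix zebrafish array, which gave 4 probe sets, 1 for each gene, of 15502 tested. These 4 genes were put together with their difference between resected and control ventricles already known, so that difference is given below as a description, without a p-value.

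Expression was measured in heart ventricles of Danio rerio. The 4 resected samples came from animals whose ventricle had been resected, and the 4 control samples from control animals; the labels give no genotype, strain or age, nor whether control animals had a sham operation. Every sample was a pool of 50 ventricles, so the animals' own variation is averaged within a pool. A time of 2 weeks after surgery is recorded for both groups, although what was done to control animals is not given. The values are log2 expression after RMA normalization, so that a difference of 1 is a 2-fold change. No detection call comes with them, and a low reading does not show absence. Array medians were 5.78 to 5.82, and precision is limited by the number of arrays. The sarcomere genes that define heart muscle were at high levels: cmlc1, myl7 and actc1a, named after their values were seen, averaged 13.47, 13.99 and 14.43 in resected arrays, against 13.52, 14.04 and 14.48 in control arrays.

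pvalb2 showed the widest separation of the 4 genes. Its probe set read 8.26, 9.18, 8.71 and 9.08 in resected replicates 1 to 4, against 6.56, 6.48, 6.44 and 6.48 in control replicates 1 to 4. The groups did not overlap: the lowest resected array lay 1.70 above the highest control array. The 4 control arrays were close together, within 0.13, while the resected arrays spread over 0.92, with replicate 1 the lowest. The mean was 8.81 ± 0.42 in resected ventricles and 6.49 ± 0.05 in control ventricles (SD, n = 4 each), a difference of 2.32 ± 0.17 (SE) or 4.99-fold. Set against the control mean, single resected pools stood between 3.42-fold and 6.47-fold higher.

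pvalb1 read 7.46, 7.87, 7.78 and 8.32 in resected replicates 1 to 4, against 6.07, 6.08, 6.04 and 6.42 in control replicates 1 to 4. Again the groups were apart, by 1.04, and replicate 1 was the lowest resected array. Here replicate 4 was the highest array in both groups, and control replicate 4 stood off from 3 control arrays that lay within 6.04 to 6.08. The difference was 1.70 ± 0.17 (SE), or 3.26-fold, between means of 7.86 ± 0.36 in resected and 6.15 ± 0.18 in control ventricles (SD, n = 4 each).

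pvalb4 read 6.27, 6.88, 6.74 and 6.88 in resected replicates 1 to 4, against 5.46, 5.54, 5.38 and 5.86 in control replicates 1 to 4. Resected replicate 1 was the lowest of its group for this gene too, and lay 0.41 above the highest control array, replicate 4. The means were 6.69 ± 0.29 in resected and 5.56 ± 0.21 in control ventricles (SD, n = 4 each), which is a difference of 1.13 ± 0.15 (SE) or 2.19-fold.

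pvalb3 had the smallest difference of the 4 genes and the narrowest gap. It read 7.42, 7.53, 7.76 and 7.80 in resected replicates 1 to 4, against 7.28, 6.96, 6.71 and 7.01 in control replicates 1 to 4. The lowest resected array, replicate 1, was only 0.13 above the highest control array, also a replicate 1, and the control arrays spread over 0.57 against 0.38 in the resected arrays. The difference was 0.64 ± 0.13 (SE), or 1.55-fold, between 7.63 ± 0.18 in resected and 6.99 ± 0.23 in control ventricles (SD, n = 4 each).

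**Figure D1:**
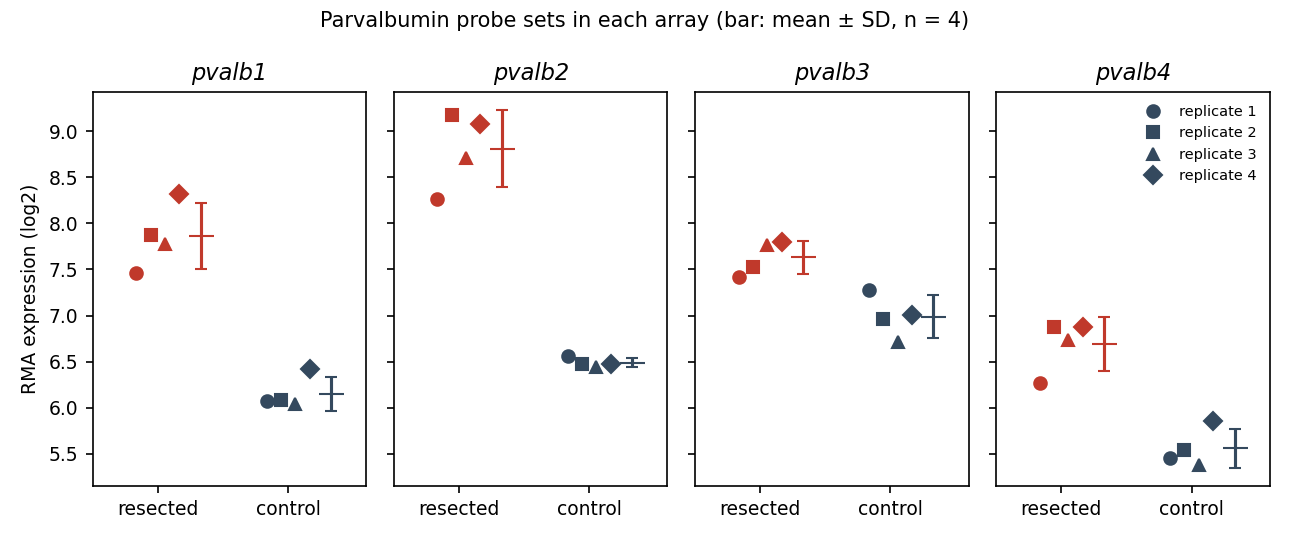
RMA expression (log2) of the pvalb1, pvalb2, pvalb3 and pvalb4 probe sets in the resected arrays (red, left) and the control arrays (dark, right), with a marker shape for each replicate number and the mean ± SD of each group (n = 4). The groups do not overlap for any of the 4 genes, and the gap narrows from 1.70 for pvalb2 to 0.13 for pvalb3. The 4 genes were chosen on this contrast, and 6.95% of all probe sets were also apart with resected higher.

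The changes fell in the order pvalb2, pvalb1, pvalb4 and pvalb3, with steps of 0.61, 0.57 and 0.50 between neighbours. Each step was larger than the standard error of either of its 2 genes. The order was the same under each of the 16 alternative settings tried. Only array weights, renewed quantile normalization and array omissions could have changed it, since the other settings keep the order by construction. Among 8793 genes, 10 had a larger increase than pvalb2, 30 a larger one than pvalb1, 100 a larger one than pvalb4 and 333 a larger one than pvalb3. The limma fit across the array called all 4 probe sets higher at an adjusted p under 0.05, where 4.28% of all probe sets were called higher and 2.57% lower, 6.85% in all. All 4 also had groups that did not overlap with resected higher, as did 6.95% of all probe sets. Since the genes were chosen on this contrast, nothing is read from either count or from the ranks.

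The other 5 measured parvalbumins, pvalb5 to pvalb9, had differences near 0. Of these, pvalb8 and pvalb9 are also called ocma and ocmb, names for oncomodulins, a branch of the parvalbumins known from mammals in the inner ear. Their differences were -0.11 ± 0.08 for pvalb5, -0.12 ± 0.11 for pvalb6, 0.03 ± 0.10 for pvalb7, -0.16 ± 0.16 for pvalb8 and -0.20 ± 0.12 for pvalb9 (SE, n = 4 per group). In each of the 5, resected and control arrays overlapped. Limma called 0 of the 5, where 8.05% of all genes were called. At an unadjusted limma p under 0.05 there were 0 of the 5, against 1116 higher and 1114 lower of all 8793 genes. With 5 genes, counts of 0 cannot be told from these shares. The choice of members left these genes out with the values known, so the split of the family is a description: the smallest change inside it was that of pvalb3 (0.64) and the nearest outside it that of pvalb7 (0.03). The means of pvalb5 to pvalb9 lay between 4.45 and 5.77 in resected and between 4.61 and 5.74 in control ventricles, below the array medians.

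The 9 genes lie partly side by side in the genome. In the GRCz12tu assembly, which is used here only for which genes neighbour each other, pvalb8, pvalb4, pvalb1 and pvalb5 follow one another with 0 other protein-coding genes between them, and so do pvalb9, pvalb3 and pvalb2 on another chromosome. In both runs, genes with a large difference sat next to genes with one near 0. In the first run pvalb4 (1.13) and pvalb1 (1.70) stood between pvalb8 (-0.16) and pvalb5 (-0.11), and in the second pvalb3 (0.64) and pvalb2 (2.32) followed pvalb9 (-0.20). Of the other genes measured within 5 protein-coding places of a member, limma called 0 of 6, and their differences ran between -0.15 and 0.19 (adjusted p of 0.37 to 0.926). Among these 6 genes 0 had an unadjusted p under 0.05. Of all 8793 genes 8.05% were called, and before adjustment 1116 were higher and 1114 lower. With 6 genes, counts of 0 cannot be told from these shares. Array probes can bind close paralogs, and how specific each parvalbumin probe set is was not tested.

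**Figure D2:**
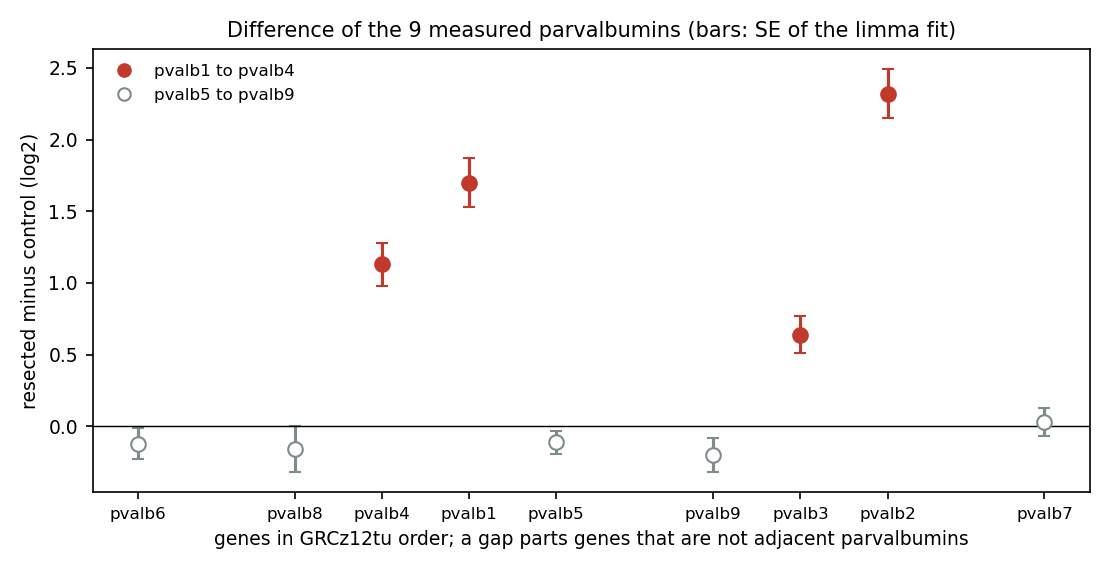
Resected minus control (log2, with the SE of the limma fit) for the 9 measured parvalbumins, in the order of the genes in the GRCz12tu assembly, with gaps where the next parvalbumin is not adjacent. The filled points (pvalb1 to pvalb4) lie between 0.64 and 2.32 and the open points (pvalb5 to pvalb9) between -0.20 and 0.03, also where filled and open genes are adjacent.

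Within a group, the 4 genes varied across pools partly together. After subtraction of the group means, pvalb1 and pvalb4 had a Pearson's r of 0.85 and a Spearman's rho of 0.90 over 8 arrays, and pvalb2 and pvalb4 an r of 0.77 and a rho of 0.64. For pvalb1 and pvalb2 r was 0.70 and rho 0.71. For the pairs with pvalb3, r lay between 0.40 and 0.47. These relations are descriptions and were not tested, and they moved with single arrays. Leaving out 1 array put r between 0.74 and 0.94 for pvalb1 with pvalb4, between 0.44 and 0.83 for pvalb1 with pvalb2 and between 0.45 and 0.91 for pvalb2 with pvalb4. For pvalb3 it put r between 0.28 and 0.70 with pvalb1, between 0.09 and 0.62 with pvalb2 and between 0.18 and 0.68 with pvalb4. Without the 2 arrays farthest from the median of pvalb1, its r was 0.93 with pvalb2, 0.93 with pvalb4 and 0.40 with pvalb3. Without the 2 arrays farthest from the median of pvalb2, its r was 0.33 with pvalb4 and 0.47 with pvalb3. For pvalb3 with pvalb4, without the 2 arrays farthest from the median of pvalb3, r was 0.64. The arrays share their normalization, and the pool with the lowest value of each member in the resected group was the same one, replicate 1, which was the lowest resected array for 23.6% of all genes.

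Of the 5 genes most like pvalb2 within groups, 4 are genes of muscle proteins. Of all named genes with a single symbol, the 5 with the highest r after subtraction of the group means were the fast troponin I gene tnni2b.1 (0.96), the myosin light chain genes myl10 (0.96), myl13 (0.96) and mylz3 (0.95), and plxdc2b (0.94), each over 8 arrays. mylz3 read 7.52, 8.38, 7.82 and 8.17 in resected replicates 1 to 4, against 6.11, 6.15, 6.19 and 6.25 in control replicates 1 to 4. myl13 read 5.71, 7.65, 6.37 and 7.18 in resected replicates 1 to 4, against 5.15, 5.22, 5.17 and 5.50 in control replicates 1 to 4. From highest to lowest, the resected pools of these 5 genes stood in the order replicate 2, 4, 3 and 1, as for pvalb2. The genes were picked for this likeness, so the shared order follows largely from the choice and nothing is read from it. Around its group means pvalb2 lay at -0.06 to 0.07 in control arrays, against -0.54 to 0.38 in resected arrays. The r of each of these 5 genes thus rests mostly on the 4 resected pools. How it moves without single arrays was not computed, nor how high the top r among so many genes would be by chance. Limma called mylz3 (1.80 ± 0.16, adjusted p = 0.000136), plxdc2b (0.84 ± 0.17, adjusted p = 0.0155), myl13 (1.47 ± 0.34, adjusted p = 0.0293) and tnni2b.1 (0.49 ± 0.13, adjusted p = 0.0485) higher. myl10, at 1.33 ± 0.40, did not pass (adjusted p = 0.0762). The call for tnni2b.1 ended without any 1 array but resected replicate 1 (adjusted p of 0.0691 to 0.114), with a replicate block (0.0721) and with array weights (0.1), and that for plxdc2b without control replicate 4 (0.0544).

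**Figure D3:**
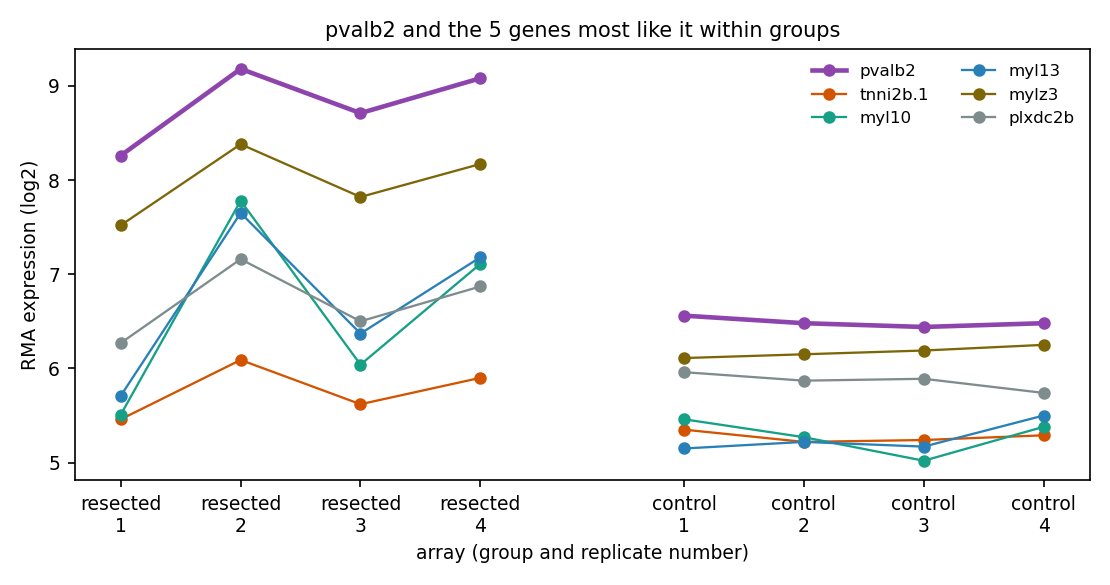
RMA expression (log2) of pvalb2 and the 5 genes whose values were most like it after subtraction of the group means, in the resected arrays (left) and the control arrays (right), with lines joining the arrays of a group for reading only. In the resected group pvalb2 reads 9.18 in replicate 2 and 8.26 in replicate 1, and the other 5 genes have their highest and lowest resected array there as well. The 5 genes were picked for their likeness to pvalb2, so this follows largely from the choice.

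The 5 genes most like pvalb1 were ftr81 (r of 0.96), the plakophilin gene pkp1b (0.94), the lipid enzyme gene napepld (0.94), the DNA ligase gene lig3 (0.94) and the polyamine acetyltransferase gene sat1b (0.93), over 8 arrays. Their differences lay between -0.20 and 0.25. Limma called 0 of the 5 (adjusted p of 0.22 to 0.809), against 8.05% of all genes. At an unadjusted limma p under 0.05 there were 0 of the 5, against 1116 higher and 1114 lower of all 8793 genes. Among the 8792 other genes the median r was 0.06 with pvalb1 (4995 above 0) and 0.03 with pvalb2 (4649 above 0). For the 31 fast skeletal muscle genes the medians were 0.13 with pvalb1 (24 above 0) and 0.29 with pvalb2 (20 above 0). For the 5 slow muscle genes they were 0.55 and 0.71. Some lists of other cells had higher medians than the fast muscle list, and some had lower ones. With pvalb1 the medians were 0.48 for 17 erythrocyte genes (16 above 0), 0.40 for 13 fibroblast and epicardial genes and 0.10 for 19 leukocyte genes. With pvalb2 the medians were 0.16 for erythrocyte, 0.09 for fibroblast and epicardial and 0.35 for leukocyte genes (16 of 19 above 0). For the 15 heart ventricle muscle genes they were 0.11 with pvalb1 and 0.01 with pvalb2.

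Some genes listed for fast skeletal muscle differed between the groups beside the parvalbumins. The list was written with earlier results of these data known. Of 31 measured fast muscle genes other than parvalbumins, limma called 10 higher and 1 lower, or 35.5%, where 5.05% of all genes were called higher and 3% lower, 8.05% in all. The largest increases were in the fast troponin C gene tnnc2.2 (1.85 ± 0.21, adjusted p = 0.000788), the essential light chain gene mylz3, the regulatory light chain gene mylpfa (1.69 ± 0.18, adjusted p = 0.000529) and the fast troponin T gene tnnt3b (1.64 ± 0.26, adjusted p = 0.00451). The list median was 0.10, against -0.04 over all genes, and at an unadjusted p under 0.05 the list had 11 genes higher and 5 lower. Some list genes, named after their values were seen, read high in both groups. ckma, eno3 and nme2b.2, the last called higher, averaged 13.33, 13.26 and 13.30 in resected and 13.28, 13.30 and 12.49 in control arrays. Differences of other sarcomere genes of the list were near 0, as in myhz1.3 (0.01 ± 0.10), tnnt3a (-0.02 ± 0.11) and tnni2a.2 (0.08 ± 0.07). The mean level of the 31 genes ran between 7.72 and 8 in resected arrays and between 7.49 and 7.55 in control arrays. With only probe sets above the median mean tested, 6 fast muscle genes were called.

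The slow muscle list, with 5 measured genes, gave 1 call higher and 0 lower (20%, against 8.05% of all genes), that of myl13. The slow myosin heavy chain gene smyhc1 was at 0.66 ± 0.24 (adjusted p = 0.131, limma), the calcium pump gene atp2a2b at 0.45 ± 0.17 (adjusted p = 0.148) and the troponin T gene tnnt2c at -0.12 ± 0.11 (adjusted p = 0.575). The list median was 0.66, and its mean level ran between 5.14 and 6.14 in resected arrays and between 4.74 and 4.97 in control arrays. The call for myl13 ended without resected replicate 2 or 4 or control replicate 1, 3 or 4 (adjusted p of 0.0622 to 0.068), with a robust variance prior (0.0649) and with array weights (0.0853), and myl10 passed without resected replicate 1 (0.0203), as did atp2a2b without control replicate 1 (0.0282).

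Of all 36 fast and slow muscle genes, 0 had a larger increase than pvalb2 and 2 a larger one than pvalb1. pvalb4 was exceeded by 7 of them and pvalb3 by 10. The 4 parvalbumins were chosen on this contrast, and the muscle lists were written with earlier results of these data known. Nothing is therefore read from these ranks. The resected pools stood in the same order as for pvalb2 (replicate 2, 4, 3 and 1 from highest to lowest) in 7 of the 11 skeletal muscle genes called higher. That order was found in 15.9% of the 440 genes called higher besides the 4 parvalbumins, these muscle genes included, and in 4.97% of all genes. The order of pvalb1 (4, 2, 3 and 1) was found in 0 of the 11 and in 8.18% of the 440 genes, and that of pvalb3 (4, 3, 2 and 1) in 0 of the 11 and in 4.09% of the 440. For pvalb4, resected replicates 2 and 4 both read 6.88 at the digits given, so its order is not set apart from those of pvalb2 and pvalb1. In whole ventricles, more cells of a type and more RNA per cell cannot be told apart, and the part of skeletal muscle cells in the parvalbumin difference was not tested.

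Of 14 measured regulators of skeletal muscle formation and nerve contact, limma called 1 higher and 0 lower, or 7.14%, near the 8.05% of all genes. The list median was -0.04, as over all genes. The gene called was musk, a receptor kinase of the neuromuscular junction, at 2.56 ± 0.27 (adjusted p = 0.000443). The mean level of the list overlapped between the groups, at 4.45 to 4.57 in resected and 4.28 to 4.48 in control arrays. The muscle determination gene myod1, picked with its value known, had a difference of -0.02 ± 0.10 (adjusted p = 0.905). Without control replicate 2, 2 genes of the list were called.

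Of 15 heart ventricle muscle genes, limma called the ventricular myosin gene myh7 higher (0.83 ± 0.11, adjusted p = 0.00182) and the transcription factor gene nkx2.5 lower (-0.36 ± 0.09, adjusted p = 0.0494). The 2 calls were 13.3% of the list, against 8.05% of all genes. The list median was -0.05, and the mean level of its genes overlapped between groups, at 10.97 to 11.22 in resected and 11.11 to 11.17 in control arrays. The call for nkx2.5 ended when any 1 array was left out (adjusted p of 0.0615 to 0.118), with median centring (0.0511), with array weights (0.0593), with an intensity trend (0.0708) and with a replicate block (0.0882).

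**Figure D4:**
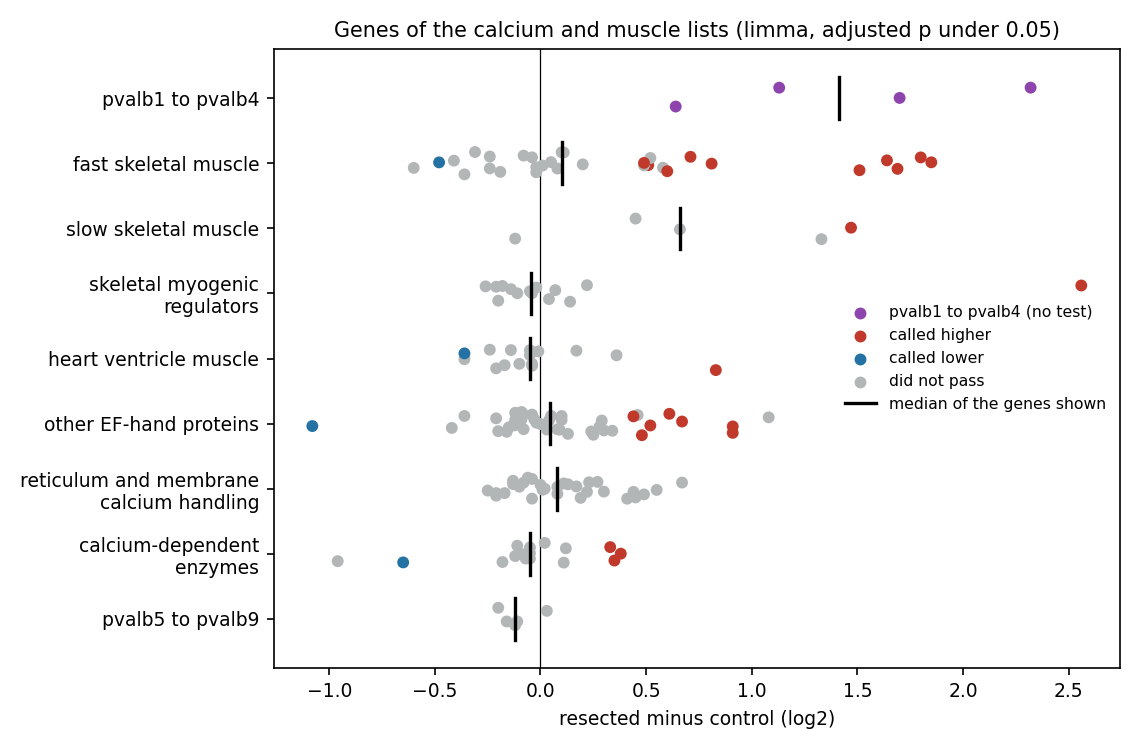
Resected minus control (log2) for pvalb1 to pvalb4 and for each measured gene of 8 lists, with the median of each row as a black bar; red and blue points passed limma's adjusted p of 0.05 and grey ones did not. The 4 parvalbumins lie between 0.64 and 2.32, and the fast muscle list has 10 red points and 1 blue one around a median of 0.10. The list of reticulum and membrane calcium handling genes, in which the release channel genes were not measured, has no coloured point.

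Parvalbumins work beside other calcium-binding proteins, and 42 genes of other EF-hand buffers and sensors were measured. Limma called 7 higher and 1 lower, or 19% against 8.05% of all genes, with a list median of 0.05. The mean level of the list was 6.66 to 6.67 in resected against 6.5 to 6.58 in control arrays. The penta-EF-hand gene pdcd6, which acts in vesicle traffic, rose by 0.91 ± 0.12 (adjusted p = 0.00148) and the reticulocalbin rcn3 of the endoplasmic reticulum by 0.91 ± 0.10 (adjusted p = 0.000448). The calmodulin gene calm3b rose by 0.67 ± 0.13 (adjusted p = 0.0108), while the neuronal calcium sensor gene ncs1b fell, with a difference of -1.08 ± 0.26 (adjusted p = 0.0353). The calbindin and calretinin genes calb1, calb2a and calb2b, cytosolic buffers like the parvalbumins and named after their values were seen, were at -0.16 ± 0.09, 0.00 ± 0.15 and -0.08 ± 0.08 (adjusted p of 0.311, 0.996 and 0.587). The list gave 4 calls without resected replicate 2, 5 without resected replicate 3, resected replicate 4 or control replicate 4, and 11 without control replicate 2. The call for ncs1b ended without resected replicate 2, 3 or 4 or control replicate 1 or 4 (adjusted p of 0.055 to 0.109) and with a robust variance prior (0.058).

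Of 30 measured genes from a list of 73 for calcium handling at the reticulum, cell membranes and mitochondria, limma called 0, against 8.05% of all genes. The ryanodine receptor, inositol trisphosphate receptor and sodium-calcium exchanger genes of the list were not among those measured. Before adjustment 7 were higher and 0 lower at a limma p under 0.05, against 1116 and 1114 of all 8793 genes. The list median was 0.08, and the mean level of its genes was 7.22 to 7.32 in resected against 7.13 to 7.17 in control arrays. The smallest p were those of calr3b, a calreticulin (0.44 ± 0.12, adjusted p = 0.054), and asph, the gene of a reticulum membrane protein (0.41 ± 0.11, adjusted p = 0.0598). The fast muscle calcium pump atp2a1, which refills the reticulum, was at 0.49 ± 0.27 (adjusted p = 0.298) and the heart's main pump atp2a2a at -0.13 ± 0.08 (adjusted p = 0.349); the choice of both was made with their values known. Without control replicate 2 limma called 5 genes of this list, among them calr3b (adjusted p = 0.0492), and without control replicate 1 it called 1. A replicate block gave 3 calls, asph among them (adjusted p = 0.0389), and an intensity trend or a robust prior gave 1, calr3b (0.0466 and 0.0492).

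Of 16 calcium- and calmodulin-dependent enzymes and their partners, limma called 3 higher and 1 lower, or 25% against 8.05% of all genes. The list median was -0.05, and the mean level of its genes overlapped, at 5.79 to 5.98 in resected and 5.93 to 5.97 in control arrays. The kinase gene camk2d2 fell, with a difference of -0.65 ± 0.09 (adjusted p = 0.00196, limma), while its paralog camk2d1 (0.35 ± 0.09, adjusted p = 0.045) and the calpain protease genes capn1 (0.38 ± 0.09, adjusted p = 0.0327) and capn2a (0.33 ± 0.08, adjusted p = 0.0414) rose. The level of camk2d1 was low, at 2.86 ± 0.08 in resected and 2.51 ± 0.13 in control arrays (SD, n = 4 each). Leaving out any 1 array but control replicate 2 left 1 or 2 calls, and a replicate block left 1.

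Several marker lists of other cells moved in the same arrays, where 5.05% of all genes were called higher and 3% lower, 8.05% in all. Of 17 erythrocyte genes 8 were called higher and 0 lower (47.1%). Their mean level was 7.53 to 8.17 in resected against 6.89 to 7.04 in control arrays. Of 13 fibroblast and epicardial genes 10 were higher and 0 lower (76.9%), at 9.05 to 9.28 in resected against 7.45 to 7.55 in control arrays. Of 19 leukocyte genes 5 were higher and 0 lower (26.3%), with overlapping levels of 7.96 to 8.52 in resected and 7.17 to 8.21 in control arrays. Limma called 13 of them without control replicate 2, 3 without resected replicate 2, 2 without resected replicate 3 and 11 with a replicate block. Of 25 skin and gill genes 5 were higher and 1 lower (24%), at 6.12 to 6.56 in resected and 6.21 to 6.67 in control arrays. The median of this list was -0.17, with 11 genes above 0. Before adjustment 6 were higher and 7 lower (limma p under 0.05). Of 18 neuron and glia genes 0 were higher and 1 lower, or 5.56% (2 higher and 2 lower before adjustment, limma p under 0.05), at 4.75 to 4.85 in resected and 4.87 to 4.98 in control arrays. This list had 2 calls with a replicate block, with averaged probe sets or without control replicate 2. The 3' minus 5' difference of the actin control transcript acta1, used as a sign of RNA quality, was -1.74 to -1.46 in resected arrays. In control arrays it was -2.30 to -1.98, a group difference of 0.54. The exact two-sided permutation p was 0.0286, the smallest that 4 against 4 arrays can give. Its 5' probe set thus read higher than its 3' one in every array, and the fast muscle list holds acta1a, at 0.58 ± 0.37. Whether this group difference follows RNA quality or the level of actin transcripts was not tested. For the GAPDH control transcript the 3' minus 5' difference was 0.80 to 1.05 in resected and 0.77 to 1.07 in control arrays (exact permutation p = 0.771). The part of these lists and of RNA quality in the parvalbumin difference was not tested.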

How the data were processed

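The authors deposited log2 RMA values, 1 column per array; affy and RMA (background correction, quantile normalization and probe summarisation) are named, without versions, per the submitters' processing notes. Of 15617 probe sets, 115 controls of the manufacturer were left out. Platform annotation symbols were updated by Entrez identifier: 10795 probe sets had 1 symbol, 135 several and 4572 none. A gene is its probe set with the highest mean (8793 genes). The array's genome build was not given in the sources used here, so no coordinates are printed.

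The groups were compared with limma 3.58.1 (R 4.3.3; lmFit, eBayes), two-sided, with Benjamini-Hochberg adjustment over 15502 probe sets and a threshold of 0.05. No batch is given in the labels used here. The labels call the samples biological replicates. The members, the 13 gene lists and the tests were chosen with earlier results of these data known. Named genes are the members, the other parvalbumins, up to 4 genes with the largest change among those called in a list (or, where none was called, the 2 with the smallest p), every gene of a list of 10 or fewer, and the 5 genes most like pvalb1 and pvalb2; list genes that no result on the parvalbumins turns on are given as counts. Tested on simulated data with the spreads of all 15502 probe sets, the fit called 55% of log2 changes of 0.5, 93% of 1 and 99.2% of 2, while unchanged probe sets made up 5.31% of its calls. The simulated noise was normal and independent between probe sets, and only a small share of them was changed. These rates therefore need not hold for the measured arrays. Alternatives were each array left out, the replicate number as a block, array weights, an intensity trend or robustness in the variance prior, 2 filters on dim probe sets, renewed quantile normalization, median centring and, for lists, averaged probe sets.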

Additional observations from a re-analysis of the deposited data

Results flagged for a closer look

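In the pvalb1 probe set, control replicate 4 stood apart from the other control arrays, at 6.42 against 6.04 to 6.08. It was singled out because its gap to the nearest control array took up 0.885 of the whole range of the control arrays. The same check was made on 80 groups of 4 arrays, of which this was the 1 picked out, and chance alone picks out about 1 in 20. Without control replicate 4 the difference of pvalb1 was 1.79 ± 0.17 (SE), against 1.70 ± 0.17 with all arrays.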

How the results depend on the processing

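Under the 8 settings other than leaving out an array, the differences lay between 1.61 and 1.70 for pvalb1, 2.22 and 2.32 for pvalb2, 0.61 and 0.64 for pvalb3, and 1.04 and 1.13 for pvalb4. Of these settings, only array weights, renewed quantile normalization and median centring could change a difference. With each array left out in turn the differences ran from 1.55 to 1.84, 2.19 to 2.5, 0.54 to 0.73 and 1.07 to 1.27. Deviations of same-numbered arrays were weakly correlated (r of 0.12, 0.14, -0.01 and -0.16 for numbers 1 to 4), and 4 of 8 arrays correlated best with their own number. Whether arrays are paired by number was not tested. A replicate block leaves the 4 differences as they were by construction in this balanced design. With it the SE was 0.11, 0.16, 0.15 and 0.12 for pvalb1 to pvalb4, against 0.17, 0.17, 0.13 and 0.15 without it. The block called 714 probe sets higher and 312 lower, against 664 and 398 without it. Over arrays left out, 394 to 951 probe sets were called higher and 151 to 657 lower, with the fewest of both without resected replicate 2 and the most without control replicate 2. With the block the calls were 3 for reticulum and membrane calcium genes, 1 for calcium-dependent enzymes, 1 for heart muscle, 2 for neurons and glia and 11 for leukocytes. An intensity trend gave 1 call for reticulum and membrane calcium genes and 1 for heart muscle, a robust prior 1 and, for slow muscle, 0, array weights 0 for slow muscle and 1 for heart muscle, and median centring 1 for heart muscle. Testing the brighter probe sets gave 6 fast muscle calls, and averaging the probe sets of a gene gave 2 for neurons and glia. With single arrays left out, calls ran from 4 to 11 for EF-hand genes, 0 to 5 for reticulum and membrane calcium genes, 1 to 4 for calcium-dependent enzymes, 0 to 2 for slow muscle, 1 to 2 for myogenic regulators, 1 for heart muscle, 1 to 2 for neurons and glia, and 2 to 13 for leukocytes. The GAPDH difference in 3' minus 5' was -0.08 to 0.03, turning to 0 without resected replicate 3 and 0.03 without control replicate 3; that of the actin was 0.49 to 0.60. Of 34 other genes named for their change or likeness, 12 changed side of the threshold under at least 1 setting. Fewer arrays and fewer probe sets follow from the settings' own construction; other causes were not tested.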
